A study of Homo sapiens with 4 samples.

Results

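The 10 human genes described here are linked to the ERK kinase pathway as feedback inhibitors (DUSP6, DUSP5, DUSP4, SPRY1, SPRY2, SPRY4, SPRED1 and SPRED2) or as other transcriptional targets (ETV5 and IER3). They are 10 of the 36601 human genes in the files, matched by symbol. The set was chosen by its levels, shares of positive parts and differences between treatments, which an earlier look at the same libraries had shown, so the values of these genes are descriptions. The samples were tumours of PANC-1, a human pancreatic ductal adenocarcinoma line, grown under the skin of nude mice. There was 1 single-cell RNA library for each of control, agrimoniin (an ellagitannin of agrimony plants), erlotinib (an EGFR kinase inhibitor) and agrimoniin with erlotinib, called the combination. Doses, treatment times and numbers of mice are not stated in the labels. Control animals received the carrier. The series' design text names cyranin where the sample label gives erlotinib, and the label was followed. All tumours came from the same line in the same kind of host, which lacks mature T cells.

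ERK is the last kinase of the cascade that runs from receptors such as EGFR through RAS, RAF and MEK. Active ERK switches on genes whose products dampen the cascade. DUSP6 is a cytoplasmic phosphatase that removes the activating phosphates from ERK, DUSP5 does so in the nucleus, and DUSP4 is a nuclear phosphatase of ERK and related kinases. Sprouty proteins (SPRY1, SPRY2, SPRY4) act between receptor and RAF, and SPRED proteins recruit neurofibromin, which turns RAS off. ETV5 is an ETS transcription factor induced by ERK, and IER3 is an immediate early gene with a role in cell survival. Because DUSP6 transcripts follow ERK activity closely, they are widely used as a readout of it in tumours.

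The DNA just before the start sites of 3 members is shown because DUSP6, SPRY1 and SPRY2 had the highest ratios of the combination to erlotinib among the members that reached a mean of 20 CPM, a level per library defined with the data below. RefSeq entries (GRCh38.p14) were found for 6 of the 10 members, DUSP6, SPRY1, SPRY2, SPRY4, SPRED1 and SPRED2, with 10 windows in all. DUSP5, DUSP4, ETV5 and IER3 had no entry. A RefSeq start need not be the outermost one, and the DUSP6 and SPRY1 windows shown lie within the gene spans given below. Each line gives the 250 bases before a start, 5′ to 3′ on the gene's strand. Capitals mark CCGGAA, a longer form of the ETS core GGAA. GGAA alone is not marked, and the DUSP6 window holds it.
DUSP6 (minus strand, chr12:89352502-89352751): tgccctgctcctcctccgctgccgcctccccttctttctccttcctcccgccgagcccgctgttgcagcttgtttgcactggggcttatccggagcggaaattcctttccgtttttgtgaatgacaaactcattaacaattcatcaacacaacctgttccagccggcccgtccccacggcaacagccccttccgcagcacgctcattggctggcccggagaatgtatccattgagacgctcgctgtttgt
SPRY1 (plus strand, chr4:123398136-123398385): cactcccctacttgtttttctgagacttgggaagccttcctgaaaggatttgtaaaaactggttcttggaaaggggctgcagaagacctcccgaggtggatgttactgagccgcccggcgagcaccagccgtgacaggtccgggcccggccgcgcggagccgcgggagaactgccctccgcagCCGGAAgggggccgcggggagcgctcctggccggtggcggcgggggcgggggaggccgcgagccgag
SPRY2 (minus strand, chr13:80341127-80341376): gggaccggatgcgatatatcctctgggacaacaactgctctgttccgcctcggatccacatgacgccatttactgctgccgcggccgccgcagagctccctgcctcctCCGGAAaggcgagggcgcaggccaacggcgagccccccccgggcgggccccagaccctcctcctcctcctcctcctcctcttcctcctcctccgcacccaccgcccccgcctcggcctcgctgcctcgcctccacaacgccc
CCGGAA was searched on both strands. It was found once in the SPRY1 window shown and once in the SPRY2 window shown, and in none of the other 8 member windows, that of DUSP6 included. Further windows of SPRY1 and SPRY2 are among these 8, so for both genes the window shown is the one that held CCGGAA. Of 35116 RefSeq windows of the same length, 14.5% held it. The AP-1 site TGANTCA and the CRE site TGACGTCA, held by 6.57% and 1.65% of all windows, were in no member window. Letters in such a window say nothing about binding.

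Every barcode held UMIs (unique molecular identifiers, one per captured transcript) of both species. The human-gene UMIs of a barcode are called its human part, which holds tumour RNA and need not be 1 cell. Between 193 and 292 human parts a library passed the filters, with 2420470 to 3775711 UMIs in all and a median of 11586 to 12653 per part. The labels name a loading aimed at 8000 cells, against 202 to 306 barcodes in the files. No barcode sequence was shared between libraries. Human genes took from 68.5% (control) to 77.9% (combination) of a library's UMIs. Levels are UMIs of a gene scaled to 1e+06 human UMIs of the kept parts (CPM), given with exact 95% Poisson intervals, and ratios of CPM have exact 95% intervals. These cover counting error only, and with 1 library per group no difference has a replicate check and no test was made. Of 10 markers listed for PANC-1, VIM, KRT8, KRT18, EPCAM and CDH2 were detected in every library. KRT19, KRT7, CDH1 and GATA6 stayed under 2 CPM. CDKN2A, which is deleted in PANC-1, had 0 UMIs in all 4 libraries, which allows at most 1.24 CPM in control, 0.813 with agrimoniin, 0.795 with erlotinib and 0.965 with both. The 10 human genes of blood, endothelial, liver and other pancreatic cells on the list summed to between 0.322 and 1.65 CPM.

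DUSP6 (ENSG00000139318, GRCh38 chromosome 12, 89347232 to 89353271) was the member that differed most between libraries. It was at 186 CPM in control (449 UMIs, interval 169 to 203), 334 with agrimoniin (1233 UMIs, 316 to 353), 95.1 with erlotinib (359 UMIs, 85.5 to 105) and 312 with both (970 UMIs, 293 to 332). The erlotinib library was the lowest and the agrimoniin and combination libraries lay together at the top, with overlapping intervals. Against control the ratio was 1.80 (1.62 to 2.01) in agrimoniin and 1.68 (1.502 to 1.88) in the combination, and DUSP6 was 1.95-fold lower (1.69 to 2.25) in erlotinib. The 3 ratios share the control library. The combination stood 3.28-fold above erlotinib (2.90 to 3.71) and at 0.934 of agrimoniin (0.858 to 1.02). The library with erlotinib was thus 1.95-fold lower than its partner without agrimoniin, and at 0.934 of it with agrimoniin. The quotient of the second ratio over the first was 1.82 (1.55 to 2.14 from counting error), and its size was not tested across tumours.

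The distance between agrimoniin and control depended on how much mouse RNA a barcode held. In barcodes with at least 75% human UMIs, DUSP6 was at 137 CPM in control (66 parts), 375 with agrimoniin (149 parts), 99.5 with erlotinib (153 parts) and 334 with both (163 parts). In barcodes under 75% it was at 228, 266, 87.3 and 248 CPM in that order. The ratio of agrimoniin to control was 2.73 (2.30 to 3.26) in the first set and 1.17 (1.00 to 1.37) in the second, and that of the combination to control was 2.43 (2.04 to 2.91) and 1.09 (0.902 to 1.31). Erlotinib was the lowest library in both sets, 1.38-fold (1.12 to 1.70) and 2.61-fold (2.10 to 3.26) under control. The combination was above erlotinib by a like amount in both, 3.35-fold (2.90 to 3.89) and 2.84-fold (2.25 to 3.59). The quotient above was 1.23 (0.981 to 1.54) where human UMIs made up at least 75% of a barcode and 2.43 (1.84 to 3.19) in the others. In the first set the erlotinib library was thus less than 1.5-fold under control, and the interval of the quotient held 1. The part played by host RNA in these differences was not tested.

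**Figure D1:**
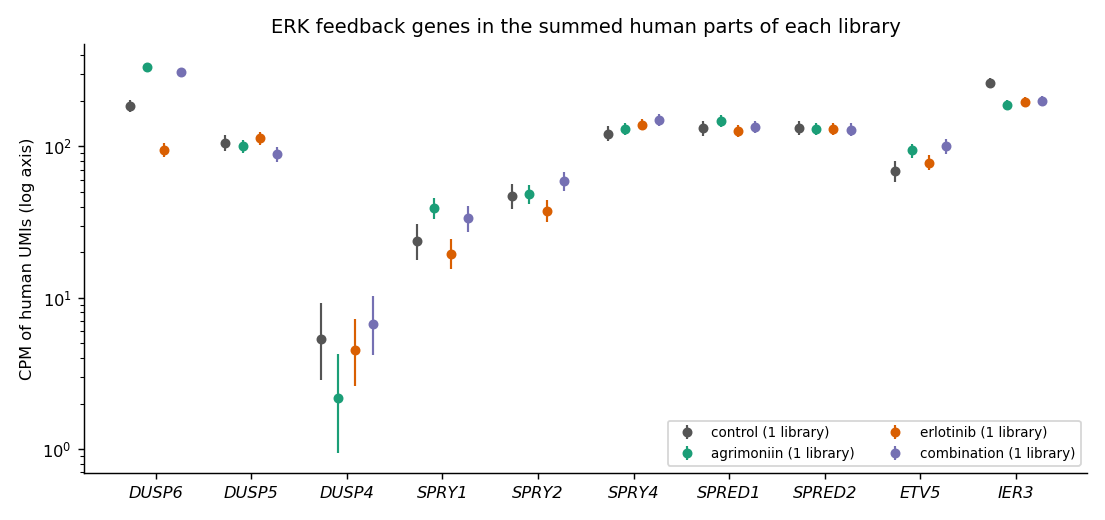
Level of each of the 10 genes in the summed human parts of each library, in CPM of human UMIs on a log axis, with exact 95% Poisson intervals and 1 library per colour. DUSP6 spreads from 95.1 CPM in erlotinib to 334 in agrimoniin, while the 4 points of SPRED2 lie between 129 and 132.

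DUSP6 was also uneven from part to part. It had a UMI in 56.5% of human parts in control, 61.8% with agrimoniin, 41.1% with erlotinib and 66.5% with both. After each part was thinned to 5000 UMIs, which left out 1 part each in agrimoniin and erlotinib, the shares were 37.8% (exact Clopper-Pearson 95% interval 31.0 to 45.1), 48.6% (42.6 to 54.6), 27.1% (22.1 to 32.6) and 53.5% (47.0 to 59.8). All parts came from 1 line, so no cell type lacking DUSP6 was at hand. Among the 10 genes listed as foreign to PANC-1 the highest unthinned share was 1.04%. That share does not measure stray DUSP6 RNA from other tumour cells, which was not assessed. Parts with at least 5 DUSP6 UMIs after thinning made up 4.66% in control, 9.57% with agrimoniin, 0.687% with erlotinib and 8.98% with both. The highest count in a thinned part was 15, 18, 6 and 13 in that order, and no part of the erlotinib library went past 6. The variance over parts was 4.22, 4.67, 1.89 and 3.85 times the mean, where counting error alone gives about 1, so the Poisson intervals of DUSP6 are too narrow for its spread over parts. In control, 1 part held 12.5% of all DUSP6 UMIs. Without the richest part of each library the level was 164 CPM in control, 323 with agrimoniin, 90.6 with erlotinib and 299.8 with both.

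**Figure D2:**
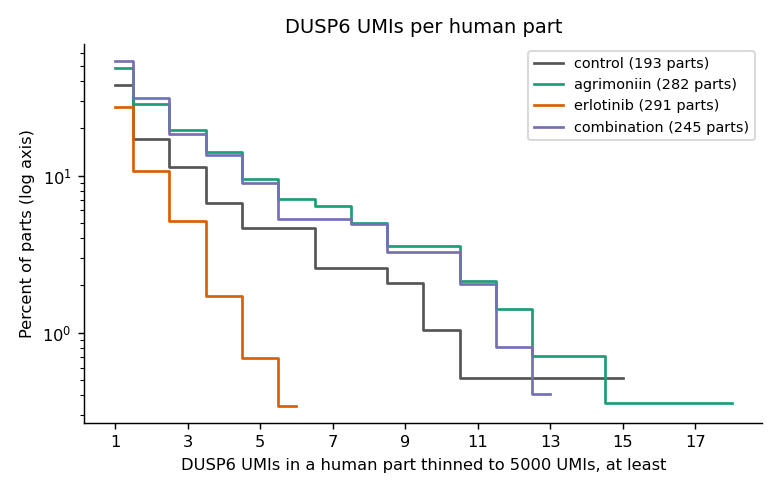
Percent of human parts (log axis) with at least the given number of DUSP6 UMIs after thinning each part to 5000 UMIs, 1 line per library. The erlotinib line ends at 6 UMIs and lies under the other 3 lines at every count up to there.

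DUSP5 (ENSG00000138166, chromosome 10, 110497838 to 110511544), the nuclear ERK phosphatase gene, did not share this pattern. It was at 106 CPM in control, 99.98 with agrimoniin, 113 with erlotinib and 88.4 with both, with the order of erlotinib and combination opposite to that of DUSP6. The combination was 1.28-fold under erlotinib (1.10 to 1.49) and at 0.836 of control (0.703 to 0.995). The variance of DUSP5 over thinned parts was 1.58 times the mean in control and 1.51 in the combination. Its counting intervals are thus too narrow as well, and an upper end of 0.995 is not read as a difference. For SPRY1 the variance was 1.25 to 1.54 times the mean and for SPRY4 1.35 to 1.83 times, so the same limit holds for them. DUSP4 (ENSG00000120875) was barely detected, with 13, 8, 17 and 21 UMIs, or 5.37, 2.17, 4.502 and 6.75 CPM. It was the only member under a mean of 20 CPM. A DUSP4 UMI was present in 1.77% to 3.67% of parts, and 1 part held at least 33.3% of its UMIs in each library, so its ratios are not read.

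Among the Sprouty genes, SPRY1 and SPRY2 had their lowest level in erlotinib, as DUSP6 did, and SPRY4 did not. SPRY1 (ENSG00000164056, chromosome 4, 123396795 to 123403760) was at 23.5 CPM in control, 39.02 with agrimoniin, 19.6 with erlotinib and 33.4 with both. The 2 libraries with agrimoniin were the higher ones, at 1.66 times control (1.21 to 2.29) for agrimoniin and 1.71 times erlotinib (1.25 to 2.33) for the combination. Over all parts the ratio of erlotinib to control was 0.832 (0.581 to 1.197). No difference between these libraries was thus detectable in the sums at this depth. Values by cell-cycle gene level are given below. SPRY1 rested on 57, 144, 74 and 104 UMIs. Its ratio of agrimoniin to control was 2.19 (1.39 to 3.56) where human UMIs made up at least 75% of a barcode and 1.04 (0.635 to 1.72) in the others, where no difference was detectable.

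SPRY2 (ENSG00000136158, chromosome 13, 80335976 to 80340951) was at 46.7, 48.2, 37.3 and 58.9 CPM in control, agrimoniin, erlotinib and combination. The combination was 1.58-fold above erlotinib (1.26 to 1.98), and the other libraries lay between them with overlapping intervals. Where mitochondrial genes took at most 10% of a part's UMIs, this ratio was 1.34 for SPRY2 and 1.39 for SPRY1, both under the 1.5-fold used for counts here. SPRY4 (ENSG00000187678, chromosome 5, 142310427 to 142326455) was at 121 CPM in control, 130.3 with agrimoniin, 139.6 with erlotinib and 149 with both. Control was thus the lowest library for SPRY4, and the combination exceeded it 1.23-fold (1.06 to 1.42).

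Both SPRED genes, whose products hold RAS in check together with neurofibromin, were almost level. SPRED1 (ENSG00000166068, chromosome 15, 38252326 to 38357249) was at 132, 147, 126 and 134 CPM in control, agrimoniin, erlotinib and combination. SPRED2 (ENSG00000198369, chromosome 2, 65310851 to 65432637) was at 132, 131, 131 and 129 CPM. Each of the 5 ratios of SPRED2 had an interval that holds 1, the widest from 0.842 to 1.14 for the combination against control, which leaves room for a difference of that size.

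ETV5 (ENSG00000244405, chromosome 3, 186046308 to 186110318), the ETS factor gene, was at 68.6 CPM in control, 94.02 with agrimoniin, 78.1 with erlotinib and 100.3 with both. The 2 libraries with agrimoniin were the higher ones, at 1.37 (1.14 to 1.66) and 1.46 (1.21 to 1.78) times control. Summed over all parts, erlotinib was not under control, with a ratio of 1.14 (0.939 to 1.39). These ratios differed with cell-cycle gene level, as given below. The ratio of agrimoniin to control was 1.57 (1.204 to 2.07) where human UMIs made up at least 75% of a barcode and 1.11 (0.836 to 1.49) in the others. IER3 (ENSG00000137331, chromosome 6, 30743199 to 30744554) went another way. It was at 262 CPM in control, 188 with agrimoniin, 196 with erlotinib and 199.7 with both. Over all parts control was the highest library and the 3 treated libraries lay together, 1.39-fold (1.25 to 1.56), 1.34-fold (1.2001 to 1.49) and 1.31-fold (1.17 to 1.47) under it. By cell-cycle gene level they did not always lie together, as given below. In barcodes with at least 75% human UMIs IER3 was 1.65-fold, 1.58-fold and 1.56-fold under control in that order. In the others it was 1.199-fold (1.003 to 1.43), 1.15-fold (0.968 to 1.38) and 1.17-fold (0.947 to 1.44) under it. The variance of IER3 over thinned parts was 3.92 times the mean in control, 3.97 with agrimoniin, 2.35 with erlotinib and 2.20 with both. Its counting intervals, those of the ratios included, are thus too narrow, as for DUSP6. Summed transcripts of 20 heat-shock and immediate early genes, a list of dissociation stress, were at 25969 CPM in control, 21154 with agrimoniin, 27327 with erlotinib and 22774 with both. Their part in the IER3 levels was not tested.

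Counted at a CPM ratio of 1.5 either way, few members differed between libraries. Of 7172 genes with a mean of at least 20 CPM, 9 were members, and DUSP4 was not among them. In agrimoniin against control 2 of the 9 members were higher, DUSP6 and SPRY1, and 0 were lower, where 1.72% and 0.962% of all genes were. In erlotinib against control 0 were higher and 1 was lower, DUSP6, where 1.98% and 1.72% of all genes were. The combination against control had 1 higher, DUSP6, and 0 lower, against 1.73% and 1.62% of all genes. The combination against erlotinib had 3 higher, DUSP6, SPRY1 and SPRY2, and 0 lower, against 1.62% and 1.16%. The combination against agrimoniin had 0 either way, against 0.655% and 1.06%. Which members were past 1.5-fold depended on the human share. In barcodes with at least 75% human UMIs, DUSP6 was no longer among them in erlotinib against control and IER3 was, and ETV5 was a further higher member in agrimoniin against control. Among the 7172 genes, DUSP6 was the second highest in the combination against erlotinib and the 17th lowest in erlotinib against control. The members were chosen with these contrasts in view, so nothing is read from these counts. The median log2 ratio over the 9 members was 0.10, -0.07, 0.29, 0.10 and -0.02 in the order of the comparisons above, beside 0.03, 0.02, 0.02, -0.01 and -0.02 over all genes.

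**Figure D3:**
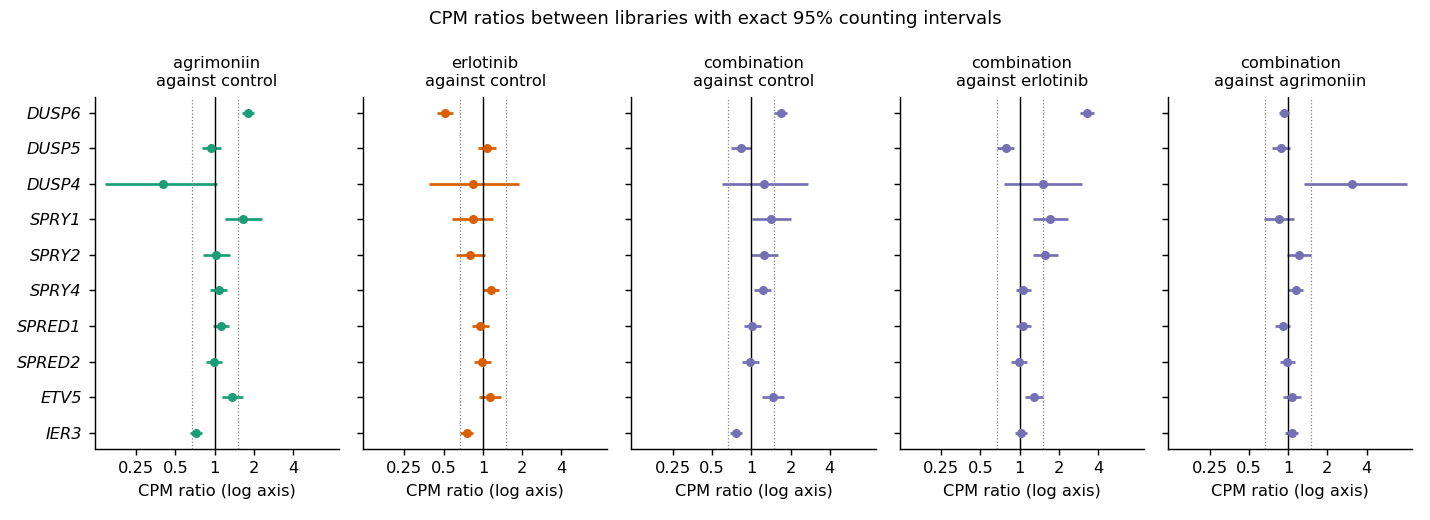
CPM ratio of each gene in the 5 comparisons of libraries, on a log axis, with exact 95% counting intervals. The solid line marks equality and the dotted lines a ratio of 1.5 either way, and DUSP6 lies outside the dotted lines in 4 of the 5 panels.

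Of 24 genes of the cascade itself, from EGFR to the RSK kinases, 17 reached 20 CPM and 0 differed 1.5-fold in any of the 5 comparisons. Over all genes, 0.655% to 1.98% were past 1.5-fold in each direction of a comparison. For so short a list 0 is near that share, so nothing is read from it. The median log2 ratios of the 17 genes ran from 0.00 to 0.06. EGFR was at 169 CPM in control, 159.9 with agrimoniin, 184 with erlotinib and 160.2 with both. Of 16 other feedback genes, 9 reached 20 CPM, and the only 1.5-fold difference was DUSP16, a phosphatase of the stress kinases, which was 1.70-fold lower (1.24 to 2.34) in erlotinib than in control. In that comparison 1.72% of all genes were lower 1.5-fold. ERRFI1, the feedback inhibitor of EGFR itself, was at 1225 CPM in control, 1390.2 with agrimoniin, 1139 with erlotinib and 1301 with both. The 4 libraries stood in the same order as for DUSP6, with ratios to control from 0.930 to 1.13. DUSP1 was at 445, 517, 463 and 520.3 CPM in that order.

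Of 25 other ERK output genes, 19 reached 20 CPM. In erlotinib against control 0 were higher and 2 were lower 1.5-fold, EMP1 and the EGFR ligand gene EREG. Of all genes 1.98% were higher and 1.72% lower there. EMP1, an epithelial membrane protein gene, was at 138 CPM in control, 134 with agrimoniin, 55.9 with erlotinib and 104.5 with both, so erlotinib was again the lowest. In the combination it was 1.87-fold higher (1.57 to 2.23) than in erlotinib. EREG did not share that step, with 88.8 CPM in control, 56.1 with agrimoniin, 38.4 with erlotinib and 39.9 with both. In agrimoniin against control EREG was the 1 gene lower and 0 were higher, in the combination against control the same count held, again with EREG, and in the combination against agrimoniin HBEGF was the 1 lower and 0 were higher. The shares of all genes lower were 0.962%, 1.62% and 1.06% in that order of comparisons, and those higher 1.72%, 1.73% and 0.655%. MYC was at 81.8, 75.05, 62.8 and 78.1 CPM. PHLDA1 was at 406, 429, 329 and 394 CPM. CCND1, the cyclin D1 gene, was lowest in control, at 322, 367, 415 and 391 CPM. The median log2 ratio of the 19 genes was -0.07, -0.16, -0.07, -0.09 and -0.06 in the 5 comparisons in their order above. Of 9 genes of ETS factors and their repressors ERF and CIC, 8 reached 20 CPM and 0 differed 1.5-fold. Beside the shares of all genes above, nothing is read from a count of 0 among so few genes.

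To see whether the members followed the cell cycle, human parts were ranked by their UMIs of 92 S phase and G2/M genes per 10000 human UMIs and split into 3 tiers of equal size at 26.2 and 65.5. MKI67, a proliferation marker on the list, went from 2.99 CPM in the low tier to 365 in the high tier of control. The split is a range on a continuous score, and 79 of 1013 parts lay within 5% of a boundary. The high tier held 28.5% of parts in control, 34.3% with agrimoniin, 35.3% with erlotinib and 33.9% with both. With this list the middle tier had the highest DUSP6 level in every library. With S phase genes alone the low tier was the highest with agrimoniin (399.6 CPM against 370.2 in the middle) and in the combination (333 against 328). In control DUSP6 was at 160.0 CPM in the low tier, 263 in the middle and 107 in the high tier. Agrimoniin had 364, 399 and 262, erlotinib had 78.7, 111 and 89.4, and the combination had 277, 429 and 266. From the low to the high tier DUSP6 was 1.49-fold lower (1.11 to 2.01) in control and 1.39-fold lower (1.21 to 1.60) in agrimoniin. With G2/M genes alone the ratio of high to low in control was 0.808 (0.607 to 1.07), whose interval holds 1, and that in the combination was 0.786 (0.669 to 0.923), whose interval does not. With both lists, in erlotinib and the combination the ratio of high to low was 1.14 (0.841 to 1.55) and 0.959 (0.817 to 1.13). Over the 7162 genes with a value in control the middle 90% of such ratios ran from 0.475 to 2.29 in control, so these of DUSP6 are not large.

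DUSP6 was higher in the combination than in erlotinib, and in agrimoniin than in control, at every cell-cycle level. The combination exceeded erlotinib 3.52-fold (2.69 to 4.66) in the low tier, 3.87-fold (3.19 to 4.70) in the middle and 2.97-fold (2.43 to 3.66) in the high tier. Agrimoniin exceeded control 2.27-fold, 1.52-fold and 2.44-fold. Erlotinib was 2.03-fold (1.48 to 2.80) and 2.37-fold (1.94 to 2.91) under control in the low and middle tiers and 1.1997-fold (0.900 to 1.59) under it in the high tier. With equal weight on the 3 tiers the ratios to control were 1.93 in agrimoniin and 1.83 in the combination, and erlotinib was 1.90-fold lower. IER3 was lower in parts with many cell-cycle transcripts, 1.65-fold (1.34 to 2.04) in control, 2.36-fold (1.95 to 2.87) in agrimoniin and 1.27-fold (1.04 to 1.55) in erlotinib. With S phase genes alone its ratio of high to low in erlotinib was 0.894 (0.739 to 1.08), whose interval holds 1. In the combination its ratio of high to low was 1.14 (0.939 to 1.37). SPRY2 was 2.11-fold lower (1.28 to 3.54) in the high than in the low tier in control and 1.68-fold lower (1.16 to 2.45) in the combination. SPRY1 in erlotinib was at 0.490 of control (0.285 to 0.832) in the middle tier. In the low and high tiers it was at 1.86 (0.887 to 4.16) and 1.24 (0.548 to 3.05). The combination was at 2.58, 0.697 and 2.59 of control for SPRY1 in the low, middle and high tiers. SPRY1 had only 11, 37 and 9 UMIs in these tiers of control. From the low to the high tier, ETV5 was 2.06-fold lower (1.39 to 3.10) in control, and its interval held 1 in the other 3 libraries. In the low tier ETV5 in erlotinib was at 0.531 of control (0.363 to 0.770). In the middle and high tiers it was at 1.71 (1.23 to 2.42) and 1.48 (1.03 to 2.17). Agrimoniin and the combination were at 0.759 (0.557 to 1.04) and 0.920 (0.678 to 1.25) of control in the low tier. Both were above control in the middle and high tiers, at ratios from 1.61 to 2.24. From the low to the high tier in erlotinib, SPRY1 was 2.10-fold (1.14 to 3.88) and SPRY4 1.46-fold (1.17 to 1.82) lower. SPRED1 was 1.27-fold lower (1.003 to 1.60) in erlotinib and 1.38-fold lower (1.10 to 1.73) in the combination. For DUSP5 and SPRED2 the interval of high to low held 1 in all 4 libraries.

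**Figure D4:**
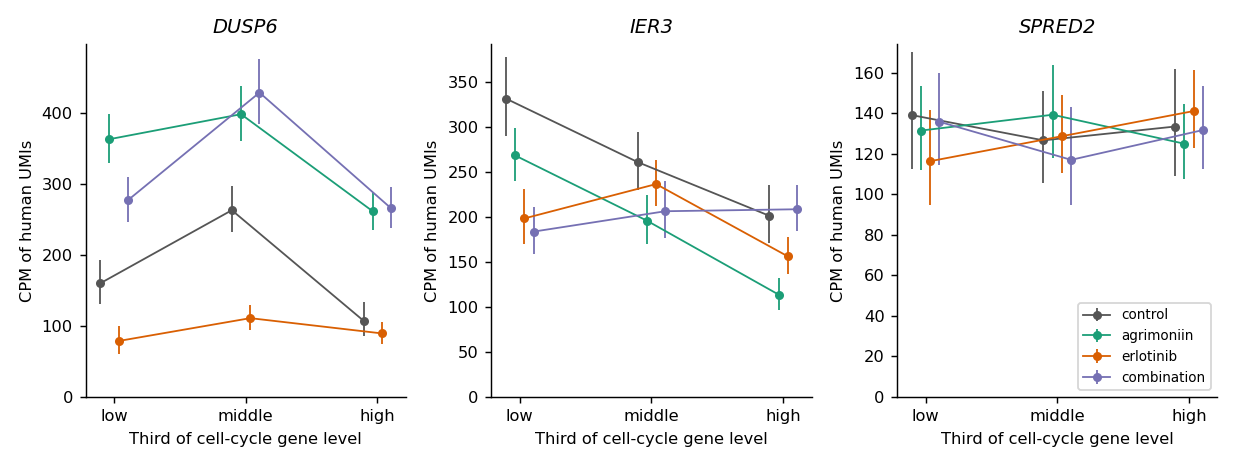
CPM of DUSP6, IER3 and SPRED2 in the low, middle and high tiers of cell-cycle gene level, 1 line per library, with exact 95% Poisson intervals and axes from 0. The erlotinib points of DUSP6 lie between 78.7 and 111 CPM in all tiers, and SPRED2 stays between 116 and 141 CPM.

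Co-detection asks whether the genes were found in the same parts. For each library the share of thinned parts with both genes was divided by the product of the 2 shares, so that 1 stands for independence. Averaged over the libraries, DUSP6 stood at 1.41 with SPRY1, 1.25 with SPRY2, 1.17 with ETV5, 1.16 with SPRY4, 1.10 with DUSP5, 1.08 with IER3, 1.03 with SPRED2 and 1.00 with SPRED1. Over 3203 genes found in 20% to 80% of thinned parts in every library, the median with DUSP6 was 0.996 in control, 1.01 with agrimoniin, 0.993 with erlotinib and 1.01 with both. In control 15.1% of parts with a DUSP6 UMI also had SPRY1 against 5.00% of the others, and 28.8% against 15.8% had SPRY2. In agrimoniin 16.1% against 9.66% had SPRY1 and 23.4% against 14.5% had SPRY2. In erlotinib the shares were 12.7% against 8.49% for SPRY1 and 20.3% against 15.6% for SPRY2, and in the combination 15.3% against 7.02% and 26.0% against 18.4%. SPRY1 and SPRY2 were thus found more often beside DUSP6 in all 4 libraries, on 10 to 34 shared parts each. The 95th percentile of the 3203 genes was 1.216 in control, 1.173 with agrimoniin, 1.228 with erlotinib and 1.164 with both. SPRY1 was above it in all 4 libraries. SPRY2 was not in erlotinib, at 1.203, nor in the combination, at 1.156. Neither gene reached a thinned share of 20% in every library, so both are rarer than the genes they are set beside. ETV5 varied, at 1.28 in agrimoniin and 1.38 in erlotinib but 1.01 in control and in the combination. DUSP4 was too sparse to read. Parts of a library share its preparation, and the counts are sparse, so these values describe the libraries only. Of the 45 pairs among the 10 genes, 12 were above 1 in all 4 libraries and 0 were below 1 in all 4. The 12 include the pairs of DUSP4 with DUSP6, DUSP5, SPRY4 and ETV5, which are too sparse to read. The same count over other gene pairs was not made, so nothing is read from it.

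The mouse parts of the same barcodes give the host's own copies of these genes. Mouse Dusp6 was at 283 CPM of mouse UMIs in control (253 to 316), 274 with agrimoniin (247 to 304), 189 with erlotinib (167 to 214) and 303 with both (268 to 341). Erlotinib was the lowest library here too, 1.496-fold (1.27 to 1.77) under control, while agrimoniin did not stand above control. The combination exceeded erlotinib 1.60-fold (1.34 to 1.90). Spry1, Spry2 and Spry4 were likewise lowest in erlotinib, at 27.5, 41.2 and 31.1 CPM, beside 49.5, 50.4 and 59.98 in control, though for Spry2 the interval of the ratio of these 2 libraries held 1. The combination exceeded erlotinib 1.88-fold (1.199 to 2.98) for Spry1, 2.40-fold (1.70 to 3.41) for Spry2 and 1.88-fold (1.23 to 2.89) for Spry4. Human SPRY4 did not share this, since control was its lowest library.

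Reads of one species can be assigned to the other. In barcodes with 0 UMIs of mouse Dusp6, human DUSP6 was at 163 CPM in control, 299 with agrimoniin, 99.1 with erlotinib and 315 with both. In barcodes with a mouse Dusp6 UMI it was at 210, 372, 85.8 and 307 CPM in that order. Erlotinib was lowest, control next and the 2 libraries with agrimoniin highest in both sets. In control and agrimoniin the level was higher where mouse Dusp6 was found. Whether reads were assigned to the wrong species was not tested. The mix of host cells differed as well. The 10 macrophage markers summed to 6472 CPM of mouse UMIs in control, 8233 with agrimoniin, 9999.8 with erlotinib and 8212 with both, the 10 fibroblast markers to 36061, 28680, 34250 and 33696, and the 10 endothelial markers to 186, 239, 137 and 127. Their part in the levels of the mouse genes was not tested. Human DUSP6 was higher in barcodes where macrophage markers led than where fibroblast markers led in the agrimoniin library, at 361 CPM (336 to 387) against 292 (265 to 321). These intervals overlapped in the other 3 libraries, at 175 against 197 CPM in control, 98.9 against 88.9 in erlotinib and 325 against 292 in the combination.

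**Figure D5:**
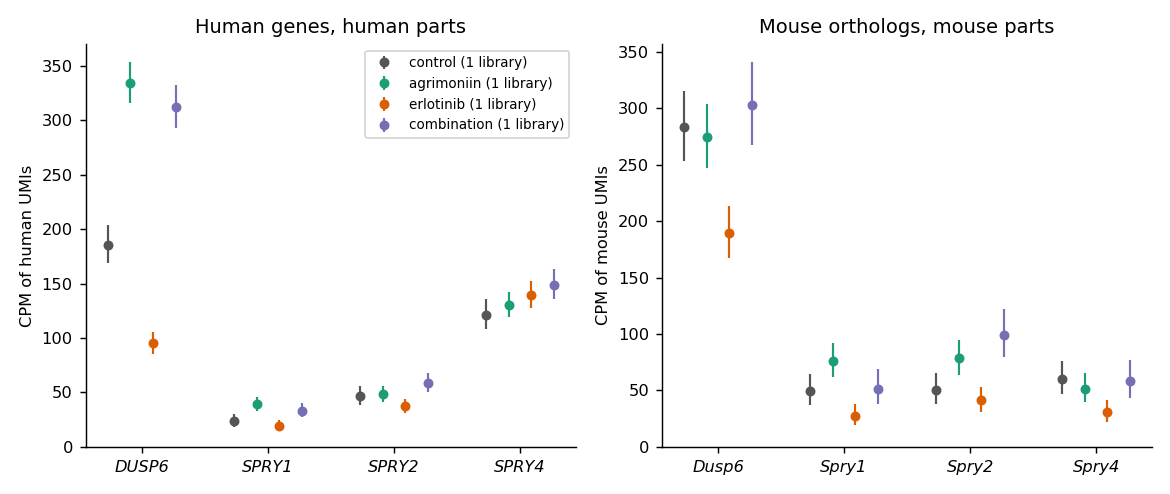
Levels of DUSP6 and the Sprouty genes in human parts (left, CPM of human UMIs) and of their mouse orthologs in mouse parts (right, CPM of mouse UMIs), with exact 95% Poisson intervals. Erlotinib is the lowest of the 4 libraries for all 4 mouse genes and for human DUSP6, SPRY1 and SPRY2.

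The genes whose pattern over the libraries was most like that of DUSP6 were sought by the distance between the 3 log2 ratios to control, over the 7172 genes. The nearest were P3H2 (distance 0.40), NEDD9 (0.41), COL11A1 (0.48), MEF2C (0.60) and KLF2 (0.71). NEDD9, a scaffold gene of focal adhesions, was at 26.9 CPM in control, 39.6 with agrimoniin, 12.2 with erlotinib and 38.6 with both. KLF2, a zinc finger transcription factor gene, was at 264, 338, 173 and 342 CPM. Of the members, SPRY1 was the nearest at 0.75 and SPRY2 next at 1.11, while SPRED1 lay at 1.34, SPRY4 at 1.46 and IER3 at 1.83. With 4 libraries and 3 ratios such likeness is a description only.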

How the data were processed

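Cells freed from the tumours by collagenase were run on a droplet 3′ kit, per the labels' protocols. The submitters' processing notes name Cell Ranger, hg38 and mm10, without a version. What the authors deposited are raw UMI counts per gene and barcode over 36601 human and 32285 mouse genes, not normalised by the authors. How barcodes were chosen is not stated in the labels. Barcodes of 27 bases do not match the kit named there, which leaves the platform unsure. Doublets were not removed, because every barcode held both species.

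Human parts needed 500 UMIs and 250 genes or more, and a mitochondrial share of no more than 25% (python 3.11.15, numpy 2.4.6, scipy 1.17.1). The same limits held for mouse parts. Counts were summed per library and scaled to CPM, with no pseudocount. Genes with a mean of at least 20 CPM over the 4 libraries entered counts of 1.5-fold ratios. Gene positions are from GENCODE 29. The ratio intervals were checked on simulated Poisson counts of whole libraries, which hold no extra spread over parts and so cannot show its effect. Thinning was checked on the control library, for the depth reached only. The members, lists and comparisons were chosen with earlier results of these data known. Named genes were the members, EGFR, MKI67, up to 4 genes of each other ERK list with the largest ratio in a comparison, the 5 nearest to DUSP6 and the 5 most often co-detected with it. A few others of those lists (ERRFI1, DUSP1, MYC, PHLDA1, CCND1) were named after their values were seen. A result of the output list in the combination against erlotinib is not reported here. The alternatives tried were other filters on parts and genes, other scalings, a pseudocount, equal weight per part or per cell-cycle tier, thinning, and leaving out the richest part or barcodes with the mouse ortholog.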

Additional observations from a re-analysis of the deposited data

How the results depend on the processing

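No paired analysis was possible because each group has 1 library, and for the same reason no replicate could be left out. DUSP6 kept its direction in all 11 alternatives for agrimoniin, erlotinib and the combination against control and for the combination against erlotinib, which ran from 3.06 to 3.55. Values outside the counting interval were, in barcodes with at least 75% human UMIs, 2.73 for agrimoniin against control, 0.725 for erlotinib against control, 2.43 for the combination against control and 1.23 for the quotient of the erlotinib effects. In barcodes under 75%, a set added after seeing the data, that quotient was 2.43. With a mitochondrial share of at most 10%, DUSP6 was at 2.08 for agrimoniin against control and 0.849 for the combination against agrimoniin, and SPRY1 turned to 0.952 for the combination against control. In barcodes with 0 UMIs of mouse Dusp6, DUSP6 was at 0.609 for erlotinib against control, 1.93 for the combination against control and 1.053 for the combination against agrimoniin. The cause was not tested.

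Counts of members moved too. A fold of at least 2 left 0 higher in agrimoniin and 0 in the combination against control, 0 lower in erlotinib against control, and 1 higher in the combination against erlotinib. With a mean of at least 50 CPM, and with a pseudocount of 10 CPM, 1 member was higher in agrimoniin against control and 1 in the combination against erlotinib. A mitochondrial share of at most 10% left 1 higher in the combination against erlotinib and made 1 lower against agrimoniin. In barcodes with at least 75% human UMIs IER3 made 1 lower in agrimoniin and 1 in the combination against control. It also took the place of DUSP6 as the 1 lower in erlotinib against control, and ETV5 made 3 higher in agrimoniin against control. Without a filter on low values, DUSP4 made 1 lower in agrimoniin against control and 1 higher in the combination against agrimoniin. Thinned to 3000 UMIs, the DUSP6 shares were 37.5% in agrimoniin, 19.9% in erlotinib and 38.8% in the combination, and the median co-detection of members with DUSP6 was 1.07 in place of 1.16. With another random draw, chosen after seeing the data, it was 1.12, and that of DUSP4 with DUSP6 was 1.13 in place of 2.26. With G2/M genes alone, the ratio of DUSP6 in the high to the low cell-cycle tier was 0.786 in the combination, and in control it was 0.808, with an interval that holds 1. With S phase genes alone, the middle tier was not the highest for DUSP6 with agrimoniin or in the combination. Depth limits DUSP4 and SPRY1 most.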

Other observations

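Host Dusp5 and Ier3 did not follow the host Sprouty genes. Mouse Dusp5 was at 231 CPM of mouse UMIs in control (204 to 261), 375 with agrimoniin, 414 with erlotinib and 415 with both, so control was the lowest library. Mouse Ier3 was lowest in control as well, at 119 CPM against 189, 151 and 251, and the combination exceeded control 2.11-fold (1.70 to 2.63), whereas human IER3 was highest in control. Mouse Dusp4 was at 105 CPM in control, 47.1 with agrimoniin, 58.5 with erlotinib and 107 with both, with each single drug under control and the combination level with it. Human DUSP4 was too sparse for such a reading.

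The 5 genes found most often in the same parts as DUSP6, among the 3203 considered, were NR4A2, CSRNP1, MFSD1, SGK1 and DNAJB4, with mean ratios of observed to expected from 1.26 to 1.32. NR4A2, an immediate early nuclear receptor gene, was above 1 in all 4 libraries, at 1.27 in control, 1.48 with agrimoniin, 1.27 with erlotinib and 1.27 with both. SGK1, a serum-induced kinase gene, ran from 1.17 to 1.35. MFSD1 rested on erlotinib and control, at 1.81 and 1.29, with 0.948 in agrimoniin and 0.995 in the combination.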
